A study of Schmidtea mediterranea with 24 samples.

Results

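The comparison described here is the difference between the mRNA responses of regenerating planarians to knockdown (KD) of either fibrillarin homolog, *fbl-1* or *fbl-2*. It rests on 12 of the 24 libraries of the series, the RNA-seq libraries, with 3 for each of 4 groups: *fbl-1* KD, its *egfp* KD controls, *fbl-2* KD, and its own controls, labelled *egfp* 2x KD. The response to *fbl-1* KD is the mean log2(value + 1) of *fbl-1* KD minus that of *egfp* KD, the response to *fbl-2* KD is *fbl-2* KD minus *egfp* 2x KD, and the difference is the former minus the latter. A difference above 0 therefore means that the mRNA rose more, or fell less, in *fbl-1* KD than in *fbl-2* KD. The test covered 13244 of 16575 genes, those that reached a value of 10 or more in 3 or more of the 12 libraries. At that limit, 86 genes had a third-highest value of 10 and passed, and 140 had 9 and did not. Only 4 genes passed through the libraries of 1 group alone, and none of them is among the genes reported below as differing.

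All worms were *Schmidtea mediterranea* at 48 hours post amputation (hpa), and the labels give the tissue as head, trunk and tail. RNAi was by feeding in every group, *egfp* being a gene that planarians lack, so all controls also received double-stranded RNA. Each replicate was a lysate of pooled worms, split between RNA-seq and ribosome profiling (Ribo-seq). According to the methods, the food for *fbl-1* was more concentrated than that for *fbl-2*, and the label of the *fbl-2* controls names the lower of these concentrations. The identity of the target, the food and the set of controls therefore change together between the 2 responses and cannot be told apart. In such bulk samples, fewer cells of a type and less RNA per cell cannot be told apart either. The p-values measure the spread between these libraries.

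Fibrillarin is the nucleolar methyltransferase that, guided by small nucleolar RNAs, adds 2′-O-methyl groups to ribosomal RNA and takes part in its processing. Aminoacyl-tRNA synthetases, which lead the results, join each amino acid to its tRNA. In mammals, several of them sit together in the multisynthetase complex, and many synthetase genes, *CHAC1* and *ASNS* are known targets of ATF4, the transcription factor that acts when amino acids are short or eIF2 is phosphorylated.

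Each value is taken to be a number of reads for a gene, multiplied by a factor of its library and rounded. Values add up to 8762055 to 9549828 per RNA-seq library, and no libraries hold identical values. The largest typical gap of a library to the mean of the other 2 of its group was that of *fbl-2* KD replicate 2, with a median of 0.265 on the log2 scale over genes, and the smallest was 0.147. Whether the tables of the 2 knockdowns were scaled together is not stated, so levels set across them carry that limit. Over all genes tested, the median of *egfp* KD minus *egfp* 2x KD was 0.03 (log2). Gene names are the authors' best protein matches and are known for 2331 of the genes tested, those that changed most being named more often. The tables give gene IDs without coordinates.

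Of the 13244 genes, 21 differed between the 2 responses, 17 with a higher and 4 with a lower value for *fbl-1* KD (limma, adjusted p below 0.05), which is 0.159% of the genes tested, 0.128% higher and 0.0302% lower. All 21 have a name. By function, 8 of the 17 encode aminoacyl-tRNA synthetases (*IARS*, *MARS*, *QARS*, *AARS*, *TARS*, *EPRS*, *RARS* and *NARS*), and the rest are *CHAC1*, *EIF2S1*, the transporters *SLC9A2* and *SLC17A5*, *BRF1*, *TRAF3*, *STK24*, *LIPA* and *fbl-1* itself. The lower ones include *fbl-2*, *MIOX* and *ZBED9*. At an unadjusted p below 0.05, 698 genes differed, 5.27% of those tested. The precision was limited, since the median standard error of the difference was 0.26 on the log2 scale.

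**Figure D1:**
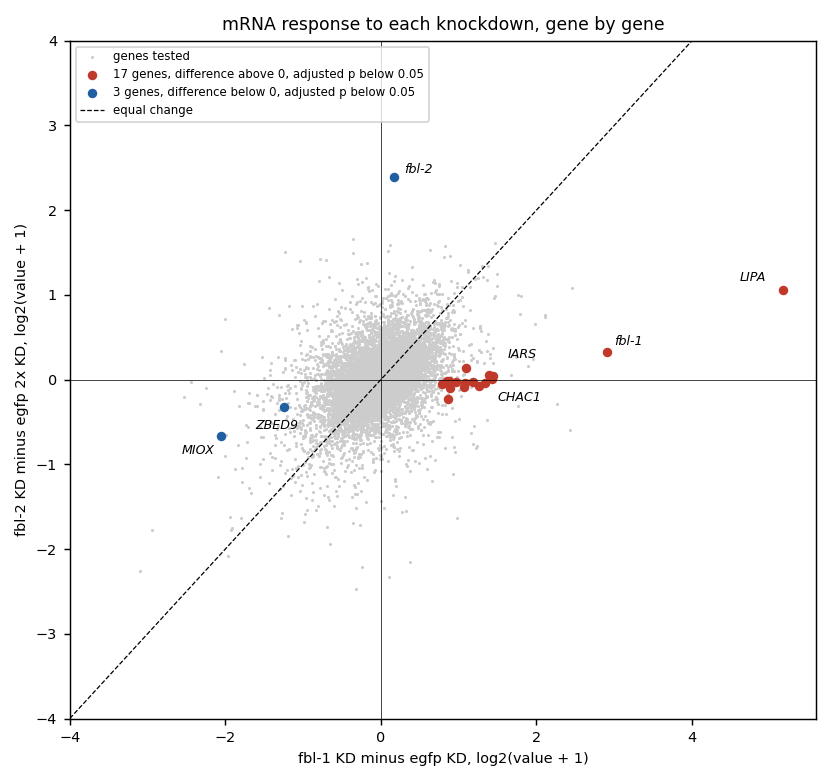
Each point is a gene, with its mRNA change in *fbl-1* KD on the x axis and in *fbl-2* KD on the y axis, both as differences of mean log2(value + 1). Red points (17) and blue points (3) are genes whose difference passed the test, and the dashed line marks equal change. Most red points lie at about 0 on the y axis and between 0.79 and 1.44 on the x axis, *fbl-1* and *LIPA* lying farther out.

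In these RNA-seq libraries, the values of the targeted genes went against the labels. By qPCR and in situ staining, the paper reports that each knockdown removed most of its target's mRNA and left the other homolog unchanged. Those assays are a different measure from the reads counted here, so the values below do not show that the knockdowns failed. The mRNA value of *fbl-1* (SMED30005569) was 143, 130 and 129 in *egfp* KD, 1383, 981 and 753 in *fbl-1* KD, 186, 150 and 134 in *egfp* 2x KD, and 242, 194 and 156 in *fbl-2* KD. That of *fbl-2* (SMED30025294) was 161, 101 and 148 in *egfp* KD, 161, 128 and 165 in *fbl-1* KD, 127, 135 and 144 in *egfp* 2x KD, and 481, 773 and 982 in *fbl-2* KD. Each target was thus highest, without overlap, in the libraries named for its own knockdown, and the labels of the other libraries cannot be checked by it. The difference was 2.58 ± 0.29 for *fbl-1* (log2 ± SE, adjusted p = 0.000474) and -2.23 ± 0.32 for *fbl-2* (adjusted p = 0.00331). The non-targeted homolog did not pass in either arm, with 0.32 ± 0.21 for *fbl-1* in *fbl-2* KD (adjusted p = 0.61) and 0.16 ± 0.23 for *fbl-2* in *fbl-1* KD (adjusted p = 0.747). Every direction below is that between libraries as labelled, and what raised the value of the targets was not tested.

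Most of the 15 synthetases listed rose in *fbl-1* KD, and none passed in *fbl-2* KD, where their changes ran from -0.10 to 0.49. Names come from a part of the annotation where genes with large changes are more common. The shares below are thus not those of all synthetases. The list holds 15 genes, all tested, of which 8 differed between the responses. A difference above 0 was seen for 14, against 48.8% of all genes tested and 60.5% of those with a name. The median difference was 0.90 in log2, against -0.01 over all genes. In the same fit, 12 of the 15 passed as higher in *fbl-1* KD and 0 in *fbl-2* KD (at all genes, 1.48% and 0.355% passed as higher). Of the 2331 genes tested that have a name, 144 and 30 did. The summed value of the list was 0.153% to 0.169% of the library in *egfp* KD, 0.311% to 0.335% in *fbl-1* KD, 0.16% to 0.162% in *egfp* 2x KD and 0.159% to 0.162% in *fbl-2* KD. For 13 of the 15, the 3 *fbl-1* KD libraries lay above the 3 *egfp* KD libraries without overlap. Of all genes tested, 23.4% did not overlap in that arm, in either direction.

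The synthetase with the largest difference was *IARS* (SMED30027368), which charges the tRNA for isoleucine. Its value was 1261, 1510 and 1370 in *egfp* KD, 3740, 4008 and 3500 in *fbl-1* KD, 1397, 1297 and 1451 in *egfp* 2x KD, and 1486, 1498 and 1294 in *fbl-2* KD. The *fbl-1* KD libraries stood more than 2-fold above all others, which overlapped with each other. The difference was 1.40 ± 0.16 (95% interval 1.06 to 1.73, adjusted p = 0.000474), made up of 1.44 in *fbl-1* KD and 0.04 in *fbl-2* KD.

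*MARS* (SMED30035512), the synthetase for methionine, had 776, 844 and 975 in *egfp* KD, 2215, 2222 and 2078 in *fbl-1* KD, 916, 836 and 904 in *egfp* 2x KD, and 855, 869 and 864 in *fbl-2* KD. *QARS* (SMED30007457), the synthetase for glutamine, had 1014, 1300 and 1145 in *egfp* KD, 2896, 3240 and 2915 in *fbl-1* KD, 1057, 1009 and 1191 in *egfp* 2x KD, and 1142, 1162 and 1081 in *fbl-2* KD. As for *IARS*, *fbl-1* KD was highest for both, with no overlap in the *fbl-1* arm and overlapping values in the *fbl-2* arm. The differences were 1.37 ± 0.15 (adjusted p = 0.000474) and 1.33 ± 0.16 (adjusted p = 0.000742).

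*AARS* (SMED30015750), the synthetase for alanine, had 1652, 1689 and 1705 in *egfp* KD, 3909, 3958 and 3599 in *fbl-1* KD, 1730, 1541 and 1604 in *egfp* 2x KD, and 1654, 1515 and 1609 in *fbl-2* KD. *TARS* (SMED30015942), that for threonine, had 2042, 2240 and 2088 in *egfp* KD, 4578, 4415 and 4440 in *fbl-1* KD, 2302, 2317 and 2351 in *egfp* 2x KD, and 2337, 2305 and 2157 in *fbl-2* KD. For these the spread within a group was small beside the step between *egfp* KD and *fbl-1* KD. The differences were 1.21 ± 0.14 (adjusted p = 0.000537) and 1.11 ± 0.14 (adjusted p = 0.00079).

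The other 3 differed by less. *EPRS* (SMED30030404), which charges the tRNAs for glutamate and proline, rose from 1276 to 1462 in *egfp* KD to 2348 to 2693 in *fbl-1* KD, with a difference of 0.98 ± 0.16 (adjusted p = 0.0115). *RARS* (SMED30032186), for arginine, rose from 864 to 1014 to 1696 to 1719, with a difference of 0.90 ± 0.15 (adjusted p = 0.0153). *NARS* (SMED30006058), for asparagine, rose from 685 to 798 to 1235 to 1486, with a difference of 0.87 ± 0.16 (adjusted p = 0.0409). *NARS* was chosen after its values were seen, as were the other synthetases of the next paragraph. Over the 8 genes, the *fbl-2* KD response lay between -0.10 and 0.06, and *egfp* KD differed from *egfp* 2x KD by -0.13 to 0.08, so the step lay in the *fbl-1* KD libraries.

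Of the 7 synthetases that did not pass, 6 had a difference above 0. *CARS* (SMED30004923), for cysteine, was as far apart as *TARS*, with 1.14, but its SE was 0.27 (adjusted p = 0.216), and its *fbl-2* KD libraries spread from 438 to 789. *DARS*, *SARS*, *WARS*, *VARS* and *YARS*, for aspartate, serine, tryptophan, valine and tyrosine, had 0.59, 0.47, 0.43, 0.36 and 0.28. Their 95% intervals ended at or below 1.10, and that of *YARS* included 0. *CARS* (1.40, adjusted p = 0.00048), *DARS*, *SARS* and *WARS* nevertheless passed as higher within the *fbl-1* arm. The exception was a second gene matched to *TARS* (SMED30035804), with -0.39 ± 0.20 (adjusted p = 0.975), which had 164 to 190 in *egfp* KD and 170 to 198 in *fbl-1* KD. The 8 genes that passed include names of the mammalian multisynthetase complex (*EPRS*, *IARS*, *MARS*, *QARS*, *RARS*) and of synthetases outside it (*AARS*, *TARS*, *NARS*).

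**Figure D2:**
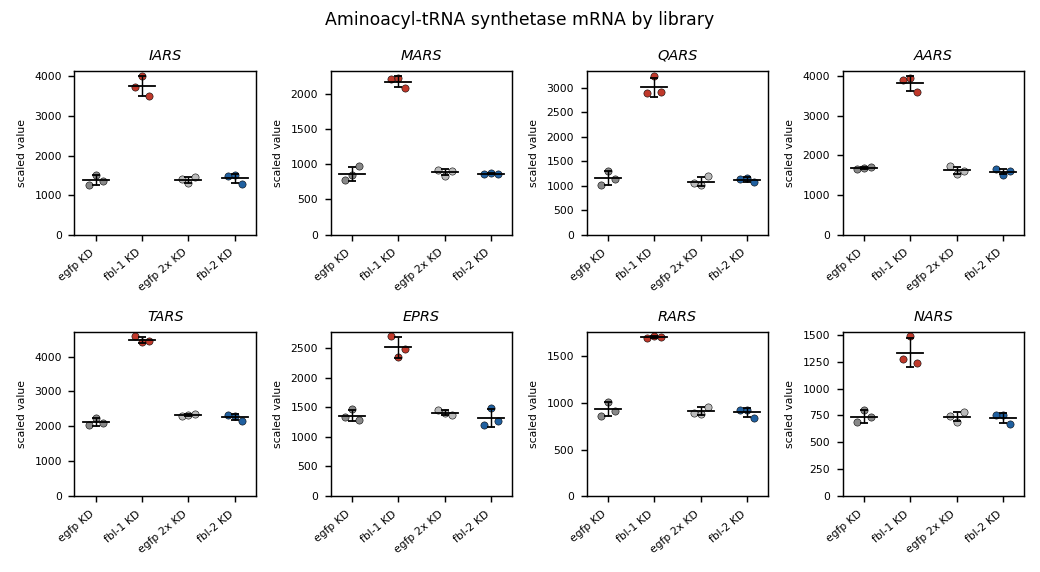
Scaled mRNA value (y axis, from 0) of the 8 synthetases whose responses differed, in each of the 12 libraries, by group. Points are libraries, the horizontal line is the group mean and the bar the SD (n = 3). The 3 *fbl-1* KD libraries are above the other 9 in each panel.

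*CHAC1* (SMED30026774), which breaks down glutathione, had the largest difference after *LIPA* and *fbl-1* among the 17 genes that passed as higher. It was at 769, 683 and 646 in *egfp* KD, 1873, 1811 and 1941 in *fbl-1* KD, 804, 905 and 968 in *egfp* 2x KD, and 1015, 853 and 819 in *fbl-2* KD. The *fbl-1* KD libraries did not overlap any other, while *fbl-2* KD overlapped its controls. The difference was 1.42 ± 0.17 (adjusted p = 0.000537), with 1.42 in *fbl-1* KD and 0.00 ± 0.12 in *fbl-2* KD. *CHAC1* is on a list of amino acid stress, serine and methionine genes, of which 11 were tested, 1 passed as higher and 0 as lower, with a median difference of 0.15. The next members were *MAT2A* (SMED30027707), which makes S-adenosylmethionine, with 0.68 ± 0.15 (adjusted p = 0.17), *XPOT*, the nuclear export factor of tRNAs, with 0.58 ± 0.17 (adjusted p = 0.62), and *ASNS* (SMED30007463), which makes asparagine, with 0.67 ± 0.28 (adjusted p = 0.90). *MAT2A* and *XPOT* passed as higher in the *fbl-1* arm, and none of the 3 passed in the *fbl-2* arm. Of the 11, 3 passed as higher and 2 as lower in the *fbl-1* arm (1.48% and 1.96% of all genes). A difference below 0 was seen for 3. A second gene matched to *ASNS* (SMED30014191) had a difference of 0.13 ± 0.26, with 0.59 in *fbl-1* KD and 0.46 in *fbl-2* KD. The list summed to 0.148% to 0.17% of the library in *egfp* KD and, overlapping, 0.167% to 0.182% in *fbl-1* KD. It was at 0.165% to 0.182% in *egfp* 2x KD and 0.14% to 0.163% in *fbl-2* KD.

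*EIF2S1* (SMED30028363), the α subunit of the initiation factor eIF2, had 154, 136 and 156 in *egfp* KD, 325, 297 and 312 in *fbl-1* KD, 173, 188 and 149 in *egfp* 2x KD, and 165, 152 and 161 in *fbl-2* KD. It rose without overlap in *fbl-1* KD and overlapped with its controls in *fbl-2* KD, with a difference of 1.15 ± 0.20 (adjusted p = 0.0232). It was the only one of 24 translation factors to pass, and their median difference was 0.16. *EIF2S3*, the γ subunit of the same factor, had 0.74 ± 0.21 (adjusted p = 0.51) and passed as higher in the *fbl-1* arm. *EIF5* (SMED30031148), which triggers GTP hydrolysis by eIF2 at the start codon, went the other way. It rose in each knockdown, from 1990 to 2141 to 2661 to 3005 in the *fbl-1* arm and from 2194 to 2334 to 4398 to 4581 in the *fbl-2* arm, and its difference of -0.54 ± 0.14 did not pass (adjusted p = 0.43). *EIF2B1*, of the exchange factor of eIF2, had -0.95 ± 0.31 (adjusted p = 0.72).

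Of the 66 solute carriers tested, 2 passed as higher and 0 as lower, with a median difference of 0.14. *SLC9A2* (SMED30001068), a sodium/proton exchanger that the study lists for the intestine alone, had 540, 578 and 472 in *egfp* KD, 1313, 1379 and 1121 in *fbl-1* KD, 672, 799 and 666 in *egfp* 2x KD, and 690, 572 and 770 in *fbl-2* KD. *SLC17A5* (SMED30022974), a lysosomal exporter of sialic acid, had 742, 723 and 720 in *egfp* KD, 1329, 1555 and 1404 in *fbl-1* KD, 575, 569 and 687 in *egfp* 2x KD, and 662, 521 and 621 in *fbl-2* KD. Both were separate from all other libraries in *fbl-1* KD. The differences were 1.34 ± 0.19 (adjusted p = 0.00333) and 0.99 ± 0.17 (adjusted p = 0.0232). *SLC7A6*, a carrier of cationic and neutral amino acids, had 0.53 ± 0.18 (adjusted p = 0.78).

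*BRF1* (SMED30013060), a subunit of the factor that recruits RNA polymerase III to tRNA genes, rose from 2216 to 2339 in *egfp* KD to 3637 to 4096 in *fbl-1* KD, and had 1986 to 2351 in *egfp* 2x KD and 1947 to 2335 in *fbl-2* KD (difference 0.84 ± 0.16, adjusted p = 0.0409). It was the only one of 55 genes of ribosome biogenesis to pass, and the median difference of that list was -0.08. *TRAF3* (SMED30002663), an adaptor of tumour necrosis factor receptors, rose from 330 to 380 to 726 to 799 in the *fbl-1* arm and had 322 to 399 and 383 to 436 in the *fbl-2* arm (difference 0.96 ± 0.17, adjusted p = 0.0329). It was the only one of 53 genes of the apoptosis and TRAF list to pass. The next 3 of that list, *TRAF2* (SMED30025797), *TRAF2* (SMED30020607) and *TRAF5* (SMED30006046), had 0.85, 0.74 and 0.73, with adjusted p = 0.30 to 0.51. The planarian genome holds many TRAF-like genes. Only unique reads were counted, so reads shared by near-identical copies would be left out.

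For *LIPA* and *STK24* the 2 sets of controls differed. *LIPA* (SMED30002911), a lysosomal acid lipase, was at 3, 4 and 4 in *egfp* KD, 108, 285 and 149 in *fbl-1* KD, 62, 128 and 54 in *egfp* 2x KD, and 205, 93 and 209 in *fbl-2* KD. The 2 knockdowns overlapped, and *egfp* KD was far below every other group. Its difference of 4.11 ± 0.55 (adjusted p = 0.00159) thus stands beside a difference between the controls of -4.04 ± 0.39 (*egfp* KD minus *egfp* 2x KD, adjusted p = 4.33e-05). *STK24* (SMED30015243), a kinase of the sterile-20 family listed for the intestine, had 481, 533 and 404 in *egfp* KD, 917, 816 and 845 in *fbl-1* KD, 724, 1025 and 892 in *egfp* 2x KD, and 717, 679 and 852 in *fbl-2* KD. Here too only *egfp* KD stood apart, with a difference of 1.09 ± 0.20 (adjusted p = 0.0409) and -0.89 ± 0.14 between the controls (adjusted p = 0.0136). These are the only 2 of the 21 genes that passed between the controls, and for the other 19 the controls differed by less than 0.5 in log2.

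Over all genes, 13 passed between the 2 sets of controls (0.0982% of those tested), and all 13 were lower in *egfp* KD. Of these, 5 are on the list of genes that the study assigns to the intestine alone. They include *COLEC11* and *SFTPD*, which match collectins, lectins of innate immunity. *COLEC11* had 110 to 233 in *egfp* KD, 442 to 593 in *fbl-1* KD, 654 to 900 in *egfp* 2x KD and 733 to 1282 in *fbl-2* KD. It passed in the *fbl-1* arm (1.74, adjusted p = 0.00051), and its difference of 1.47 ± 0.34 did not pass (adjusted p = 0.185), except without *egfp* KD replicate 1 (adjusted p = 0.0394). *SFTPD* had the same order of groups and a difference of 1.10 ± 0.29 (adjusted p = 0.43). The part that the controls play in these differences cannot be told apart from that of the food.

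Among the genes with a lower difference, *MIOX* (SMED30019899), the enzyme that starts the breakdown of inositol, had 264, 274 and 326 in *egfp* KD, 58, 84 and 66 in *fbl-1* KD, 216, 242 and 198 in *egfp* 2x KD, and 131, 122 and 160 in *fbl-2* KD. *ZBED9* (SMED30033685), a zinc finger gene of transposon origin in mammals and listed for the intestine, had 792, 778 and 884 in *egfp* KD, 359, 375 and 305 in *fbl-1* KD, 793, 842 and 800 in *egfp* 2x KD, and 569, 702 and 677 in *fbl-2* KD. Both were lower in each knockdown without overlap, and further down in *fbl-1* KD. *MIOX* changed by -2.05 in *fbl-1* KD and by -0.67 in *fbl-2* KD, where it did not pass (adjusted p = 0.102), with a difference of -1.38 ± 0.25 (adjusted p = 0.0307). *ZBED9* changed by -1.24 and -0.33 (adjusted p = 0.30 for the latter), with a difference of -0.91 ± 0.17 (adjusted p = 0.0409). *MIOX* is on the list of genes that the study assigns to cathepsin+ cells alone, a class that includes phagocytes and pigment cells.

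**Figure D3:**
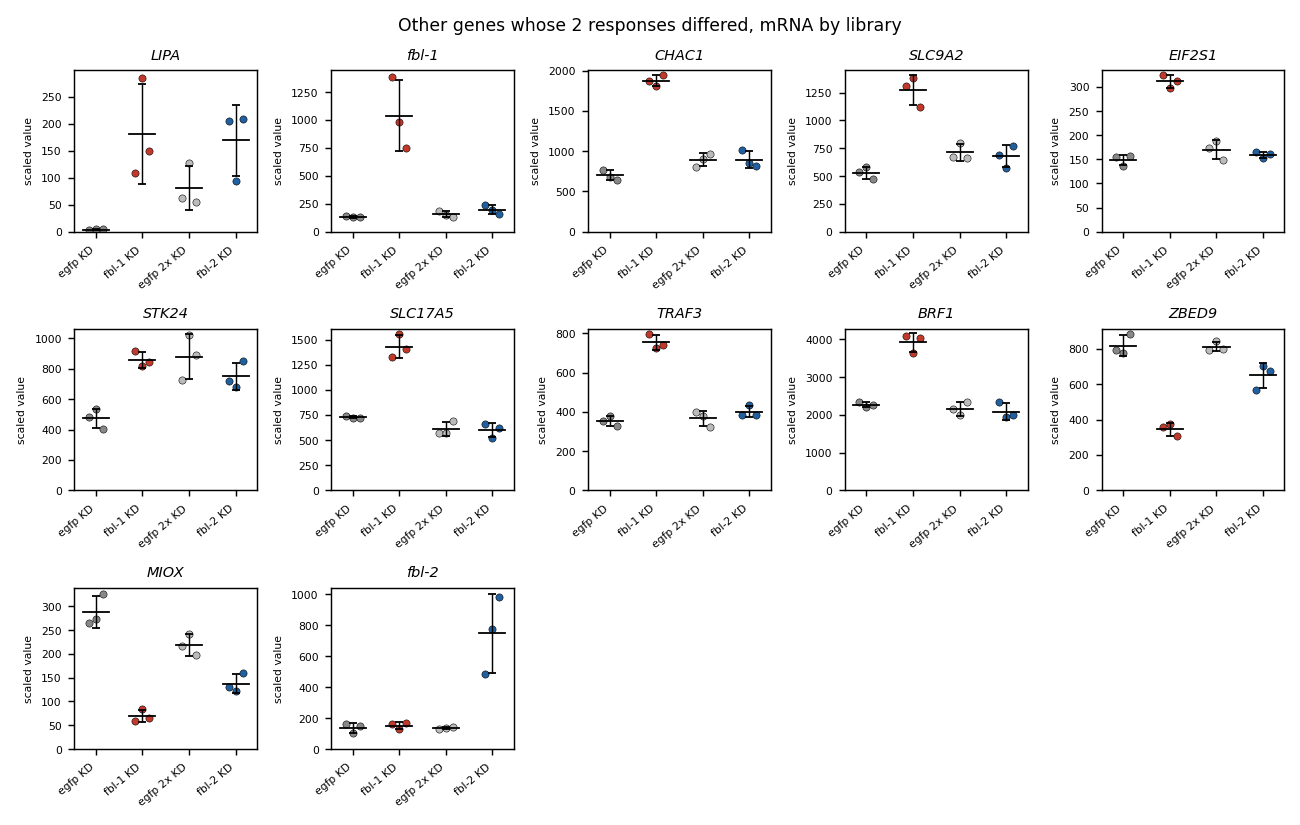
Scaled mRNA value (y axis, from 0) of 12 other genes whose responses differed, in each of the 12 libraries, by group (points, libraries; line and bar, mean and SD, n = 3). In *LIPA* and *STK24* the *egfp* KD libraries are low beside the other 3 groups, and in most others only *fbl-1* KD stands apart.

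Of the 21 genes, the 3 *fbl-1* KD and 3 *egfp* KD libraries did not overlap for 20, against 23.4% of all genes tested, and the 3 *fbl-2* KD and 3 *egfp* 2x KD libraries did not overlap for 4, against 14.8%. In each of 12 fits that left out 1 library, 11 of the 21 passed, among them *fbl-1*, *fbl-2*, *LIPA*, *CHAC1*, *IARS*, *MARS*, *QARS*, *AARS*, *TARS* and *SLC9A2*. The other 10 were lost in at least 4 of these fits, *NARS* in all 12, with their highest adjusted p between 0.0639 (*EPRS*) and 0.20 (*BRF1* and *ZBED9*). The fewest of the 21, 11, passed without *egfp* KD replicate 3 and without either replicate 1 or 3 of *fbl-1* KD, whereas 16 passed in each of the 3 fits without a *fbl-2* KD library. In a fit without a trend of variance with mean, 10 of the 21 passed. Of the 11 genes that passed whichever library was left out, 8 also passed in both fits with a term for replicate number. *TARS* and *SLC9A2* did not pass in both.

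The 2 responses had most of their direction in common. In this fit 455 genes passed in *fbl-1* KD (196 up, 1.48%, and 259 down, 1.96%, together 3.44% of those tested) and 105 in *fbl-2* KD (47 up, 0.355%, and 58 down, 0.438%, together 0.793%), and 67 passed in both, which is 14.7% of the former and 63.8% of the latter. Of the 67, 30 rose and 37 fell in both knockdowns, and 0 moved in opposite directions. A same sign in the other arm was seen for 89.7% of the genes that passed in *fbl-1* KD and for 97.1% of those that passed in *fbl-2* KD, against 66.1% of all genes. The arms share no libraries. Across the 13244 genes, which are not independent replicates, the 2 responses correlated with Pearson's r = 0.43 and Spearman's rho = 0.44.

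A gene that passed in 1 knockdown alone was in most cases not shown to differ between them. Of 388 genes that passed in *fbl-1* KD alone, 20 passed the test of the difference, and of 38 that passed in *fbl-2* KD alone, 1 did, *fbl-2*. None of the 67 shared genes passed it. The genes that passed as higher in *fbl-1* KD had a median change of 0.70 there and 0.32 in *fbl-2* KD. Those that passed as lower had -0.72 and -0.35. Since these genes were chosen by their *fbl-1* KD values, a smaller change in the other arm follows in part from the choice. The shared genes had a median size of change of 0.78 in *fbl-1* KD and 0.80 in *fbl-2* KD, and 40 of the 67 changed more in *fbl-2* KD. Fewer genes passed in *fbl-2* KD, so passing there largely set which genes were shared. These sizes therefore cannot say which knockdown changed them more.

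Genes of the intestine leaned to a difference above 0, with 90 of 129 above it (69.8%, against 48.8% of all genes and 60.5% of those with a name). This lean was not particular to the intestine, since 161 of 223 neural genes (72.2%) and 28 of 40 genes of the protonephridia (70%) were also above 0. The study assigns 135 genes of the tables to the intestine alone, of which 129 were tested. Of these, 2 passed as higher (*SLC9A2* and *STK24*) and 1 as lower (*ZBED9*), and 29 had an unadjusted p below 0.05 with a difference above 0 (22.5%, against 2.11% of all genes and 6.82% of those with a name) and 8 with one below 0 (6.2%, against 3.16% and 4.8%). The median change was -0.14 in *fbl-1* KD and -0.33 in *fbl-2* KD, and the median difference was 0.23. In *fbl-1* KD, 11 of the 129 passed as higher and 31 as lower (of all genes tested, 1.48% and 1.96%). In *fbl-2* KD, 1 passed as higher and 19 as lower (0.355% and 0.438%). Of the 2331 genes tested that have a name, 144 and 146 did so in *fbl-1* KD, and 30 and 41 in *fbl-2* KD. The controls of the list also lay apart, *egfp* KD minus *egfp* 2x KD having a median of -0.10 (0.03 over all genes), and the list holds 5 of the 13 genes that differed between the controls, all lower in *egfp* KD. Their part in the difference was not tested. Of the 14 that fell in both, 11 had the larger fall in *fbl-2* KD, and none of these 14 passed the test of the difference. The 14 had to pass in *fbl-2* KD, where fewer genes passed, which favours large falls there. The cell type lists hold only genes from the part of the annotation held here, where genes with large changes are more common. Some of these genes have no name. Their shares are thus not those of all genes of a cell type, and genes with a name are not an exact background for them. The summed value of the list was 2.73% to 3.29% of the library in *egfp* KD, 2.31% to 2.63% in *fbl-1* KD, 2.90% to 3.30% in *egfp* 2x KD and 1.97% to 2.44% in *fbl-2* KD, so that each knockdown lay below its controls and the 2 knockdowns overlapped.

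Among the members of this group is *MTTP* (SMED30015218), which loads lipid onto lipoproteins. It had 1432, 1625 and 1586 in *egfp* KD, 998, 1099 and 1080 in *fbl-1* KD, 1717, 1680 and 1444 in *egfp* 2x KD, and 613, 655 and 905 in *fbl-2* KD. It fell by 0.55 and by 1.17 on the log2 scale, and the difference of 0.63 ± 0.19 did not pass (adjusted p = 0.67). *ABCC1* (SMED30000258), an exporter of conjugated organic anions, had 774, 841 and 789 in *egfp* KD, 485, 573 and 457 in *fbl-1* KD, 809, 718 and 684 in *egfp* 2x KD, and 283, 250 and 288 in *fbl-2* KD, with a difference of 0.75 ± 0.17 (adjusted p = 0.196). The matrix gene *POSTN* had a difference of 0.63 ± 0.22 (adjusted p = 0.76), and the secreted protease *PRSS12* (SMED30005872) one of 0.65 ± 0.21 (adjusted p = 0.72). *TNXB*, another matrix gene, which the study lists for intestine and neoblasts, had 0.81 ± 0.17 (adjusted p = 0.115). All of these passed as lower in each knockdown, without overlap in either arm for *MTTP* and *ABCC1*. Of the 11 ABC transporters tested, 9 had a difference above 0 (81.8%, against 48.8% of all genes and 60.5% of those with a name). None passed, and their median difference was 0.28.

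Genes of stem cells and of cytosolic ribosomal proteins had lower differences as lists. None of the members of these lists passed except *fbl-1*, which is on the neoblast list and is described above. *piwi-1* (SMED30007406), the common marker of neoblasts, the planarian stem cells, had 12299, 12634 and 13971 in *egfp* KD, 7610, 8794 and 7534 in *fbl-1* KD, 12486, 13103 and 11974 in *egfp* 2x KD, and 10591, 9482 and 12684 in *fbl-2* KD. It fell without overlap in *fbl-1* KD (-0.70, adjusted p = 0.008) and overlapped with its controls in *fbl-2* KD (-0.21, adjusted p = 0.61), and the difference was -0.50 ± 0.19 (adjusted p = 0.82). *MCM2*, of the replication helicase, had -0.45 ± 0.17 (adjusted p = 0.81), and *VASA-1*, a germline and stem cell helicase, -0.23 ± 0.19 (adjusted p = 1.0). The 3 markers together took 0.127% to 0.141% of the library in *fbl-1* KD and 0.2% to 0.219% in its controls, and 0.156% to 0.19% in *fbl-2* KD and 0.19% to 0.2% in its controls. Of 115 genes listed for neoblasts alone, 46 had a difference above 0 (40%, against 48.8% of all genes and 60.5% of those with a name). The median was -0.15. Single libraries moved this median by over 1.5 times. It was -0.0897 when *fbl-2* KD replicate 1 was left out, -0.0966 when the same was done for *egfp* KD replicate 1, and -0.234 when it was *fbl-2* KD replicate 3.

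The cytosolic ribosomal proteins had the lowest median of the lists with at least 8 tested genes, -0.60 over 17 genes, with 16 of 17 below 0. A difference above 0 was seen for 5.88%, against 48.8% of all genes and 60.5% of those with a name. None passed, and 5 had an unadjusted p below 0.05, all lower (29.4%, against 3.16% and 4.8%). The median change was -0.58 in *fbl-1* KD and 0.27 in *fbl-2* KD. *RPS12* (SMED30031089) had 1999, 1395 and 1680 in *egfp* KD, 853, 802 and 1024 in *fbl-1* KD, 1385, 1893 and 1882 in *egfp* 2x KD, and 2299, 2080 and 1096 in *fbl-2* KD, where replicate 3 was low beside the other 2. Without *fbl-2* KD replicate 3, *RPS12* and *RPS25* passed (adjusted p = 0.0286 and 0.0106), against 0.72 and 0.75 with it. Over the 12 fits with 1 library left out, the median of the list lay between -0.44 (without *egfp* KD replicate 1) and -0.82 (without *fbl-2* KD replicate 3). The summed value of the list was 0.214% to 0.396% of the library in *egfp* KD, 0.183% to 0.216% in *fbl-1* KD, 0.262% to 0.324% in *egfp* 2x KD and 0.248% to 0.378% in *fbl-2* KD, overlapping in each arm. Of the 8 histone genes tested, 7 had a difference below 0 and 1 above it (12.5%, against 48.8% of all genes and 60.5% of those with a name). Their median was -0.33, led by *H2AFJ* with -1.25 ± 0.32 (adjusted p = 0.35).

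Epidermal genes as a list were also lower. Of 127 genes listed for the epidermis alone, 45 had a difference above 0 (35.4%, against 48.8% of all genes and 60.5% of those with a name). The median difference was -0.16, with a median change of 0.24 in *fbl-1* KD and 0.36 in *fbl-2* KD. The 3 that passed were the synthetases *MARS*, *EPRS* and *RARS*, which are used by all cells. Of 5 markers of the epidermal lineage, none passed. *prog-1*, of early epidermal progeny, had -0.54 ± 0.22 (adjusted p = 0.88). *egr-5*, a regulator of epidermal differentiation, rose in *fbl-2* KD (0.73, adjusted p = 0.032) and had 0.52 in *fbl-1* KD (adjusted p = 0.074), with a difference of -0.20 ± 0.22 (adjusted p = 1.0). Of 8 genes of the wound response, none passed, the extremes being *nlg-1* with -0.67 ± 0.38 and *fos-1* with 0.32 ± 0.17 (adjusted p = 1.0 and 0.99).

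Of the other lists by cell type, only those for cathepsin+ cells (with *MIOX*) and for the pharynx (with *BRF1*) held genes that passed. Their median differences were 0.24 for the protonephridia, 0.17 for neural genes, 0.09 for cathepsin+ cells, -0.01 for muscle and for parapharyngeal cells, and -0.03 for the pharynx. By function, the 102 genes of ion channels, receptors and synapse had a median of 0.26, with 78 above 0 (76.5%, against 60.5% of genes with a name and 48.8% of all), and the 88 genes of cilium and axoneme one of 0.10. No gene of either list passed. The 12 remaining lists by function had medians between -0.14 (cell cycle, DNA replication and repair) and 0.22 (muscle), and no gene passed other than *LIPA* on the list of lipid metabolism. Of 22 chaperones, with a median of 0.16, none passed. *HSPA9*, the Hsp70 of mitochondria, came closest with 9571 to 10356 in *egfp* KD, 14491 to 16586 in *fbl-1* KD, 9287 to 10827 in *egfp* 2x KD and 9337 to 9662 in *fbl-2* KD (difference 0.74 ± 0.17, adjusted p = 0.185).

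**Figure D4:**
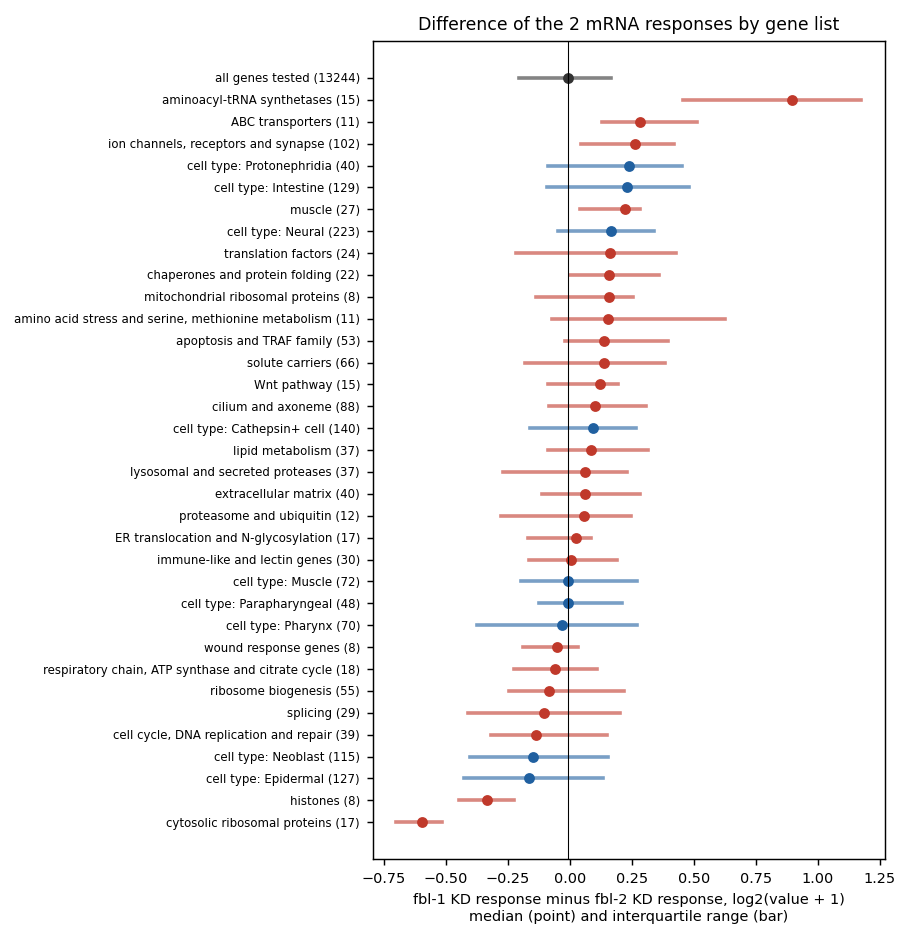
Median (point) and interquartile range (bar) of the difference of the 2 mRNA responses in log2(value + 1), for each gene list with at least 8 tested genes (number in parentheses). Red marks lists by function, blue lists by cell type and black all genes tested, whose median of -0.01 is drawn as a line. The synthetases (0.90) and the cytosolic ribosomal proteins (-0.60) lie farthest from it.

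The same contrast was fitted to ribosome footprints, the second readout from the same lysates, over 12 Ribo-seq libraries of the same 4 groups. Of 13100 genes tested, 10 had a higher (0.0763%) and 4 a lower difference (0.0305%), 0.107% in all, and 802 had an unadjusted p below 0.05 (6.12%). All 21 genes that passed for mRNA had a footprint difference of the same sign. Since both readouts come from the same lysates, this agreement is not independent of the mRNA values. The share of same signs over all genes was not taken. Of the 21, 10 passed for footprints too. These include *IARS* (1.16 ± 0.18), *QARS* (1.36 ± 0.20), *AARS* (1.26 ± 0.20), *TARS* (1.14 ± 0.17), *RARS* (1.39 ± 0.18), *CHAC1* (1.55 ± 0.26), *SLC9A2* (1.60 ± 0.26), *SLC17A5* (1.17 ± 0.20) and *fbl-2* (-3.31 ± 0.34), with adjusted p from 9.88e-05 to 0.0152. The footprint calls rest on the trend of variance with mean that limma fitted, and without it 0 genes passed and 773 had an unadjusted p below 0.05, among them all 14.

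The footprint values of *QARS* were 1344, 1209 and 1504 in *egfp* KD, 3590, 3262 and 3031 in *fbl-1* KD, 1739, 1598 and 1183 in *egfp* 2x KD, and 1360, 1471 and 1406 in *fbl-2* KD. The *fbl-1* KD libraries were above the other 9, as for its mRNA. Over the 15 synthetases, 14 had a footprint difference above 0 (6891 of all 13100 genes did), with a median of 0.88, beside 0.90 for mRNA. *MARS* (0.97 ± 0.19, adjusted p = 0.0521) fell just short, and *fbl-1* had 0.83 ± 0.32 (adjusted p = 0.767), beside 2.58 for its mRNA. *LIPA* had 4.97 ± 1.24 (adjusted p = 0.286), its footprint values in *egfp* KD being 30, 0 and 14. The cytosolic ribosomal proteins had a median footprint difference of 0.12, whereas that of their mRNA was -0.60.

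**Figure D5:**
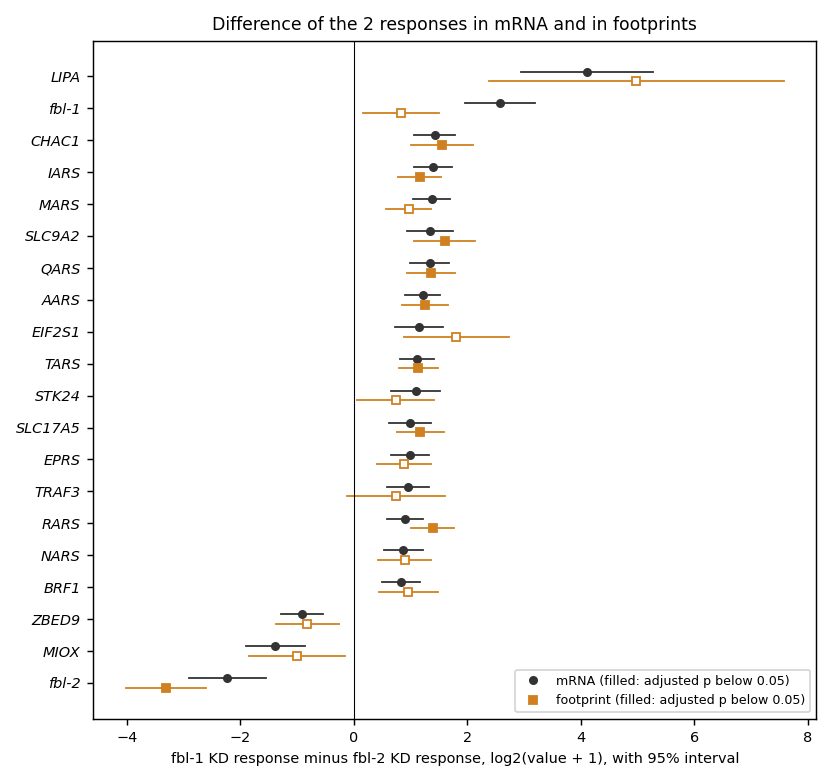
Difference of the 2 responses (x axis, log2(value + 1), *fbl-1* KD minus *fbl-2* KD, each against its own controls) for 20 of the 21 genes that passed for mRNA, with 95% intervals. Dark circles are mRNA, orange squares are footprints, and filled symbols have an adjusted p below 0.05. Each pair lies on the same side of 0, and the footprint of *fbl-1* (0.83) is well below its mRNA (2.58).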

How the data were processed

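Total RNA, depleted of rRNA, and ribosome footprints were sequenced from the same lysates. According to the methods, the authors trimmed reads with Cutadapt and Sickle, removed rRNA reads, aligned the rest with Tophat2 to a *S. mediterranea* transcriptome and counted unique reads per gene with featureCounts. The deposited values are signal values: whole numbers that are taken to be read counts times 1 factor per library. A sign of this is that 2 RNA-seq and 7 Ribo-seq libraries lack some whole numbers from 1 to 24. The other libraries lack none, so for them the scaling is assumed. How the factor was set is not given in the sources used here, so count models were not used. Columns of footprints were assigned to groups by name and not paired with RNA-seq samples. Depth before scaling is unknown, so no counting intervals are given.

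Tables were joined by gene ID, and log2(value + 1) was fitted with limma 3.58.1 in R 4.3.3 (limma-trend, 4 group means, 12 libraries, assays apart). The contrast of contrasts was tested with Benjamini-Hochberg adjustment over all genes tested and a threshold of 0.05. The fit was tested on simulated data. Alternatives were other pseudocounts (0.5, 10), filters (none, mean of at least 50), scalings, no trend, replicate blocks and leaving out each library. Named genes were the targets and the genes the study used as markers, up to 12 genes per direction that passed and had a mean of at least 20, the 4 members of each of 28 lists by function and 9 by cell type with the smallest p, and up to 3 unnamed genes per direction. Those not described in the text are in its counts and ranges. Members, lists and tests were chosen with earlier results of these data known. Names come from the part of the gene annotation held here, which is sorted by change, so lists hold genes with large changes more often. A gene that passed is counted but not reported here. No sequence is shown, since none was used here.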

Additional observations from a re-analysis of the deposited data

Results flagged for a closer look

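Each value here is a difference between the responses to the 2 knockdowns in log2, *fbl-1* KD minus *fbl-2* KD, that passed limma's test of that difference. For mRNA these included *LIPA* 4.11, *fbl-1* 2.58, *CHAC1* 1.42, *IARS* 1.40, *MARS* 1.37, *SLC9A2* 1.34, *QARS* 1.33, *AARS* 1.21, *EIF2S1* 1.15, *TARS* 1.11, *STK24* 1.09, *SLC17A5* 0.99, *EPRS* 0.98, *TRAF3* 0.96, *RARS* 0.90, *NARS* 0.87, *BRF1* 0.84, *ZBED9* -0.91, *MIOX* -1.38 and *fbl-2* -2.23. For footprints, *SLC9A2* had 1.60, *CHAC1* 1.55, *RARS* 1.39, *QARS* 1.36, *AARS* 1.26, *SLC17A5* 1.17, *IARS* 1.16, *TARS* 1.14 and *fbl-2* -3.31. A further 4 genes passed for footprints and not for mRNA: *ABCC1* (SMED30000258) with 1.41, *HSPA9* with 0.96, and the unnamed genes SMED30006074 with -1.12 and SMED30002537 with -0.83.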

How the results depend on the processing

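The counts of genes that differed for mRNA (17 higher, 4 lower) stayed within 1.5 times under both pseudocounts, both filters, median-of-ratios factors and quantile normalization. Without a mean trend they were 10 and 1 for the difference, 102 and 117 for *fbl-1* KD (196 and 259), 14 and 36 for *fbl-2* KD (47 and 58), and 0 and 0 for footprints (10 and 4). Replicate numbers are shared between groups, but same-numbered libraries of an arm did not deviate together (correlations -0.344 to 0.047). With a replicate block over the 4 groups, the counts were 9 and 2 for the difference, 119 and 140 for *fbl-1* KD, and 16 and 33 for *fbl-2* KD. With a replicate block within each arm they were 7 and 1, 39 and 28, and 7 and 13. With 1 library left out at a time, the counts ranged from 9 to 14 higher and 2 to 4 lower for the difference, 72 to 261 and 55 to 322 for *fbl-1* KD, 11 to 84 and 24 to 69 for *fbl-2* KD, and 4 to 24 and 1 to 6 for footprints, where the highest counts came without the library fbl-1_1 and the lowest without fbl-2_3. The direction of 6 weakly different genes turned. Quantile normalization gave -0.008 for *AGAT-1* and 0.0616 for *inhibin-1*, and with 1 library left out *AGAT-1* ranged from -0.0773 to 0.085, *RPS10* from -0.19 to 0.60, *inhibin-1* from -0.24 to 0.35, *jun-1* from -0.0866 to 0.0155, *wnt-1* from -0.25 to 0.0734 and *wntless* from -0.24 to 0.12. The cause of these shifts was not tested. With 3 libraries per group and a median standard error of 0.26, differences of small size could not be detected.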

Other observations

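The 4 genes that passed for footprints alone had values of at least 229 in every library of both assays. *HSPA9*, the Hsp70 of mitochondria, had footprint values of 6482, 6347 and 7238 in *egfp* KD, 10437, 8494 and 8182 in *fbl-1* KD, 9621, 10099 and 8804 in *egfp* 2x KD, and 6695, 6089 and 6952 in *fbl-2* KD. It was higher without overlap in *fbl-1* KD (0.43, adjusted p = 0.0576) and fell without overlap in *fbl-2* KD (-0.53, adjusted p = 0.0332), and the 2 sets of controls stood at different levels. *ABCC1* (SMED30000258) had 832, 858 and 709, then 716, 667 and 714 in the *fbl-1* arm, and 907, 857 and 1018, then 425, 229 and 292 in the *fbl-2* arm. It fell in *fbl-2* KD alone for footprints (-1.60, adjusted p = 0.000148, against -0.19 and adjusted p = 0.725 in *fbl-1* KD), whereas its mRNA fell in both.

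The unnamed gene SMED30006074 had footprint values of 2342, 2595 and 2361 in *egfp* KD, 1377, 1701 and 1688 in *fbl-1* KD, 689, 533 and 680 in *egfp* 2x KD, and 873, 892 and 918 in *fbl-2* KD. Each arm moved without overlap, down in the first and up in the second, where the change did not pass (0.51, adjusted p = 0.0918). SMED30002537 had 4664, 4555 and 3945 in *egfp* KD, 2236, 2444 and 2215 in *fbl-1* KD, and 2109 to 2433 over the 6 libraries of the *fbl-2* arm. For both, the *egfp* KD footprints stood far above those of *egfp* 2x KD, while their mRNA values overlapped between these controls.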
